A study of Mus musculus with 6 samples.

Results

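Cadherins are the calcium-dependent adhesion proteins that hold neighbouring cells together, and the unclustered protocadherins are their relatives outside the large protocadherin gene cluster. The genes were chosen by name: every protein-coding gene of GENCODE M21 on chromosomes 1 to 19 whose symbol is Cdh followed by a number, or Pcdh followed by a number with or without a last letter. The rule took 33 of 20807 genes, 23 cadherins and 10 protocadherins, and left out 2 genes on the X chromosome. For each gene, the bases covered by H3K9me3 peaks were counted over the gene body and over the promoter, defined as 3 kb on each side of the 5′ end of the gene, in each library separately.

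The mark, trimethylated lysine 9 of histone H3, was profiled by ChIP-seq, sequencing of immunoprecipitated chromatin, in neural stem cells (NSCs) taken from the cortex of C57BL/6J mouse fetuses at embryonic day 12.5. The shCTR cells carried a lentiviral scramble shRNA and the shPHF8 cells a lentiviral shRNA against PHF8, a histone demethylase, so cells of both conditions were transduced, and the methods add puromycin selection. Each condition had 2 ChIP libraries and 1 input, which was not used here. The comparison asks where the H3K9me3 domains of these adhesion genes differ between control cells and cells carrying the shRNA against PHF8. The labels do not say whether the replicates came from separate cultures, so the spread between them may be technical. The number of cells per ChIP given in the labels differs from that in the methods, and the shRNA sequence used for these libraries is not named in the labels. On chromosomes 1 to 19 the deposited lists held 44205 to 55344 peaks, which covered 156 and 159 Mb in the shCTR pair against 219 and 197 Mb in the shPHF8 pair, a ratio of 1.32. The median peak was 2400 bp wide in each control library, and 4200 and 2800 bp wide in the shPHF8 pair. Paired values are always given as replicate 1 and then replicate 2, and 4 values in a row as the shCTR pair followed by the shPHF8 pair. A peak is a position without a height, so only gains and losses of covered bases can be seen, and the depth behind a peak is not in the lists. The lists hold no RNA: of 9 neural stem cell markers, 5 had a promoter peak in at least 1 library and 1 in all 4, which says nothing of expression. Phf8 had no covered base in its gene body in any library, and the knockdown cannot be checked from these files.

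Classical cadherins bind the same or similar cadherins on the next cell through repeats in their outer part, and bind catenins, which link to actin, through their tail. Cdh2 (N-cadherin) holds the apical junctions of cortical progenitors, Cdh1 (E-cadherin) is the epithelial form, and type II members such as Cdh6, Cdh8, Cdh11 and Cdh20 mark regional and neuronal compartments. Cdh13 (T-cadherin) lacks a membrane-spanning tail and is held by a lipid anchor, and Cdh23 and Pcdh15 form the tip links of hair cells. Most of the unclustered protocadherins counted here fall into delta-1 (Pcdh1, Pcdh7, Pcdh9) and delta-2 (Pcdh8, Pcdh10, Pcdh17, Pcdh18) groups. These have weaker adhesion and roles in axon growth and cell sorting. Pcdh12, Pcdh15 and Pcdh20 were kept apart as other protocadherins. Most unclustered protocadherins encode nearly all of the outer part of the protein in 1 very large exon. H3K9me3 is a mark of silent heterochromatin, best known over repeats and at some gene clusters.

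The sequences behind the main differences are shown to let the CG content of a coding exon be read beside that of an intron. A region is a stretch of merged peaks from the 4 libraries, called gained when it held a peak in both shPHF8 libraries and neither shCTR library, and lost in the opposite case. Capitals mark every CG, searched on the plus strand of the gene only since CG reads the same on both strands. The upstream sequence is the 250 bases before the Pcdh10 start site in RefSeq (chr3:45378148-45378397, plus strand). The others are 150 bases on the strand of the gene, all on GRCm38.p6. They are the middle of the lost part of the largest coding exon of Pcdh10 (chr3:45380522-45380671) and of Pcdh18 (chr3:49755015-49755164), the middle of the lost region upstream of Pcdh8 (chr14:79772926-79773075), the middle of the widest lost region, in an intron of Cdh20 (chr1:104776126-104776275), and the middle of the widest gained regions, in introns of Cdh13 (chr8:118950326-118950475) and Cdh26 (chr2:178463826-178463975).
Pcdh10 start, upstream: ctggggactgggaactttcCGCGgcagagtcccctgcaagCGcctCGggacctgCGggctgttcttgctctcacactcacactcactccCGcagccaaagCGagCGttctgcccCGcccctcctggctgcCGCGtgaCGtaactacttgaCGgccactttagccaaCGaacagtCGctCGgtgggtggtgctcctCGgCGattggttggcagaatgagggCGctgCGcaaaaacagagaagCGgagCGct
Pcdh10 coding exon, lost: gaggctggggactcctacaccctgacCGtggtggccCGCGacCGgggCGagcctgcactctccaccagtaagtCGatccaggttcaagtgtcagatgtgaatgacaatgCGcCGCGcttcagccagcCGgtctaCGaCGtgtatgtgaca
Pcdh18 coding exon, lost: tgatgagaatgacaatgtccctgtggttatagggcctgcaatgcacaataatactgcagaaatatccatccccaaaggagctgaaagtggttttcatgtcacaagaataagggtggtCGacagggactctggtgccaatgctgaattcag
Pcdh8 upstream, lost: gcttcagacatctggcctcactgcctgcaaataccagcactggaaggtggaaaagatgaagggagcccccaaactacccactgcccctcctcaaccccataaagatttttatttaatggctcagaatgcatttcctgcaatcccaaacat
Cdh20 intron, lost: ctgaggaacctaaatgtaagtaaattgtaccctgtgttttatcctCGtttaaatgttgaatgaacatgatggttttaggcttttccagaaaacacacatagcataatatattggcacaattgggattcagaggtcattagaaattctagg
Cdh13 intron, gained: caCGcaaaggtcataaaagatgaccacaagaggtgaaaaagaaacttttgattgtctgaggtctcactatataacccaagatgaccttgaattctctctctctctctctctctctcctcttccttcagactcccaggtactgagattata
Cdh26 intron, gained: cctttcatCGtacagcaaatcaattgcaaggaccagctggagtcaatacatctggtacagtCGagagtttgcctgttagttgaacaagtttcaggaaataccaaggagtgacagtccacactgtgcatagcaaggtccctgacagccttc

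The 150 bases of the Pcdh10 exon held 12 CG, a number reached by 0.554% of the central 150 bases of all 70705 merged regions, whose median was 1. The Pcdh18 exon stretch held 1, the Cdh20 and Cdh13 stretches 1 each, the Cdh26 stretch 2 and the Pcdh8 upstream stretch 0, and 67.9% of all regions held at least 1. The 250 bases upstream of Pcdh10 held 22 CG, reached by 15.3% of 31396 such upstream sequences, of which 92.4% held at least 1, and no library had a covered base in them. At Pcdh10 the peak that the control libraries shared therefore lay over the large coding exon and not on the CG-rich stretch before the start. Control replicate 1 had a further 1400 bp covered upstream.

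Over all 33 genes, peaks covered 479 and 509 kb of gene body in the control pair, against 688 and 652 kb in the shPHF8 pair. The shPHF8 libraries were both higher, with a mean of 670 ± 25.1 kb against 494 ± 20.9 kb (SD, n = 2 each) and a ratio of 1.36 (exact permutation test, two-sided, p = 0.33, which is the floor for 2 libraries against 2, so no test here can reach 0.05). The same ratio was 1.20 over all protein-coding genes and 1.22 over the genes of at least 100 kb. This surplus lay in 1 gene. Without Cdh13, the other 32 genes had 338 and 374 kb in shCTR and 347 and 337 kb in shPHF8, a ratio of 0.961 with overlapping conditions (exact permutation test, two-sided, p = 0.667). With every library scaled to the same total covered length, the ratio over all 33 was 1.03.

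At promoters the lower sum in shPHF8 came mainly from the delta-2 protocadherins. The summed promoter bases of the 33 genes were 30.5 and 33.9 kb in the control pair, against 22.5 and 24.7 kb in the shPHF8 pair, a ratio of 0.733 (exact permutation test, two-sided, p = 0.33). The promoters of all genes gave a ratio of 1.01 (exact permutation test, two-sided, p = 1.00). The conditions did not overlap for the members. Without the 4 delta-2 genes, the other 29 had 18.6, 23.8, 19.6 and 22.7 kb, a ratio of 0.999 with overlap. These 29 held differences in opposite directions. The 23 cadherin promoters alone had 13.1, 12.7, 15.0 and 15.4 kb, a ratio of 1.18, higher in both shPHF8 libraries. This held for the sum only, since no cadherin type separated. Type I had 8866, 8666, 13017 and 7786 bp, and type II had 4200, 4000, 2000 and 6200 bp. The other cadherins had 1454 bp in shPHF8 replicate 2 alone. The delta-1 promoters had 1889, 2489, 1689 and 1289 bp, lower in both shPHF8 libraries. Those of Pcdh12, Pcdh15 and Pcdh20 had 3659, 8606, 2942 and 5942 bp, with overlap.

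Gene bodies of 26 of the 33 genes held a peak in at least 1 library, against 49.2% of all genes, and 17 held one in all 4 libraries. For gene bodies the share of all genes with a peak in all 4 libraries was not computed. Long genes are covered more often: among genes of at least 100 kb, 94.9% of all and 14 of 17 members held a peak. For 7 of the 26 covered genes the shPHF8 libraries both lay above the controls, against 27.8% of all covered genes, and for 6 both lay below, against 12.8%. Among covered genes of at least 100 kb, 4 of 14 members had more and 3 fewer, against 39.0% and 13.3% of all such genes. Scaling the libraries to the same covered length turned the split to 4 genes with more and 10 with fewer, against 14.8% and 29.9% of all covered genes. On both scales the members with more were near the background and those with fewer somewhat above it, and neither was tested. The median log2 ratio of covered bases, with 200 bp added to each mean, was 0.11 over the 26 covered members and 0.18 over the 10247 covered genes.

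**Figure D1:**
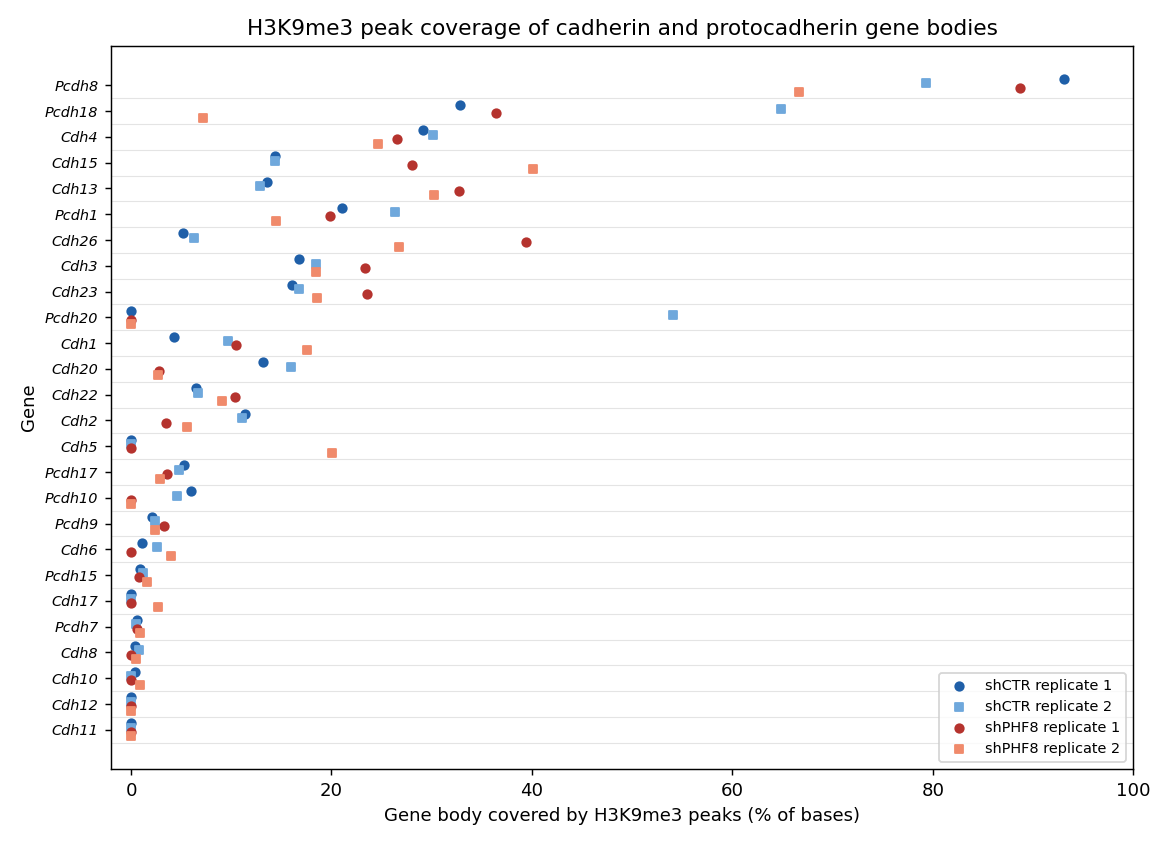
Share of each gene body covered by H3K9me3 peaks (x axis, % of bases) for the 26 genes with a peak in any library (y axis, ordered by mean), with 1 point per library. Blue points are shCTR and red points shPHF8, circles replicate 1 and squares replicate 2. Red points sit to the right of both blue points for Cdh13, Cdh15 and Cdh26, and to the left for Cdh20, Cdh2 and Cdh4.

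Among the cadherins outside the classical types, Cdh13 stood first. Cdh13 (ENSMUSG00000031841.19, chr8:118283733-119324921) spans 1041189 bp, and peaks covered 141321 and 134721 bp of it in the control pair, against 340121 and 314721 bp in the shPHF8 pair. That is 13.6 and 12.9% of the gene in control cells and 32.7 and 30.2% in shPHF8 cells, with a wide gap between the conditions beside a small one within them. The difference of the means, 189400 bp, was the largest of all 20807 genes. It ranked 1 of 20807 also after scaling (128313.5 bp) and with any 1 of the 4 libraries left out (176700 to 202100 bp). A gene of this length can hold more covered bases than others, so the covered share is a fairer measure: by the difference in covered percent, 18.2 points, Cdh13 ranked 3 of the 218 genes of at least 500 kb and 20 of the 2372 genes of at least 100 kb.

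The added bases in Cdh13 were spread along the gene. Of its 53 bins of 20 kb, 50 held a peak, 35 had more covered bases in both shPHF8 libraries and 1 had fewer. Of its 77 merged regions, 14 were gained (18.2%) and 1 was lost (1.30%), against 4.29 and 5.00% of all merged regions on chromosomes 1 to 19, and 33 were present in all 4 libraries. The gained regions began between 65.9 and 945 kb from the start, 12 of them in introns and 2 reaching an exon. The widest, chr8:118945801-118955000, is the intronic region whose middle is shown above, and had 0 covered bases in both shCTR libraries, and 9000 and 7800 bp in the shPHF8 pair. Another gained region of Cdh13, chr8:119132001-119140000, was the third widest among the members, with 0, 0, 4400 and 7200 bp. The promoter of Cdh13 held no peak in any library. In total 97.0 kb of the gene was covered in both shPHF8 libraries and neither shCTR library, 1.60 kb in the opposite way and 77.3 kb in all 4. Soft-masked repeat bases made up 19.3% of the 97.0 kb, 19.4% of the 77.3 kb, and 24.0% of the bases covered in no library, so the added bases held no larger a repeat share than the rest.

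**Figure D2:**
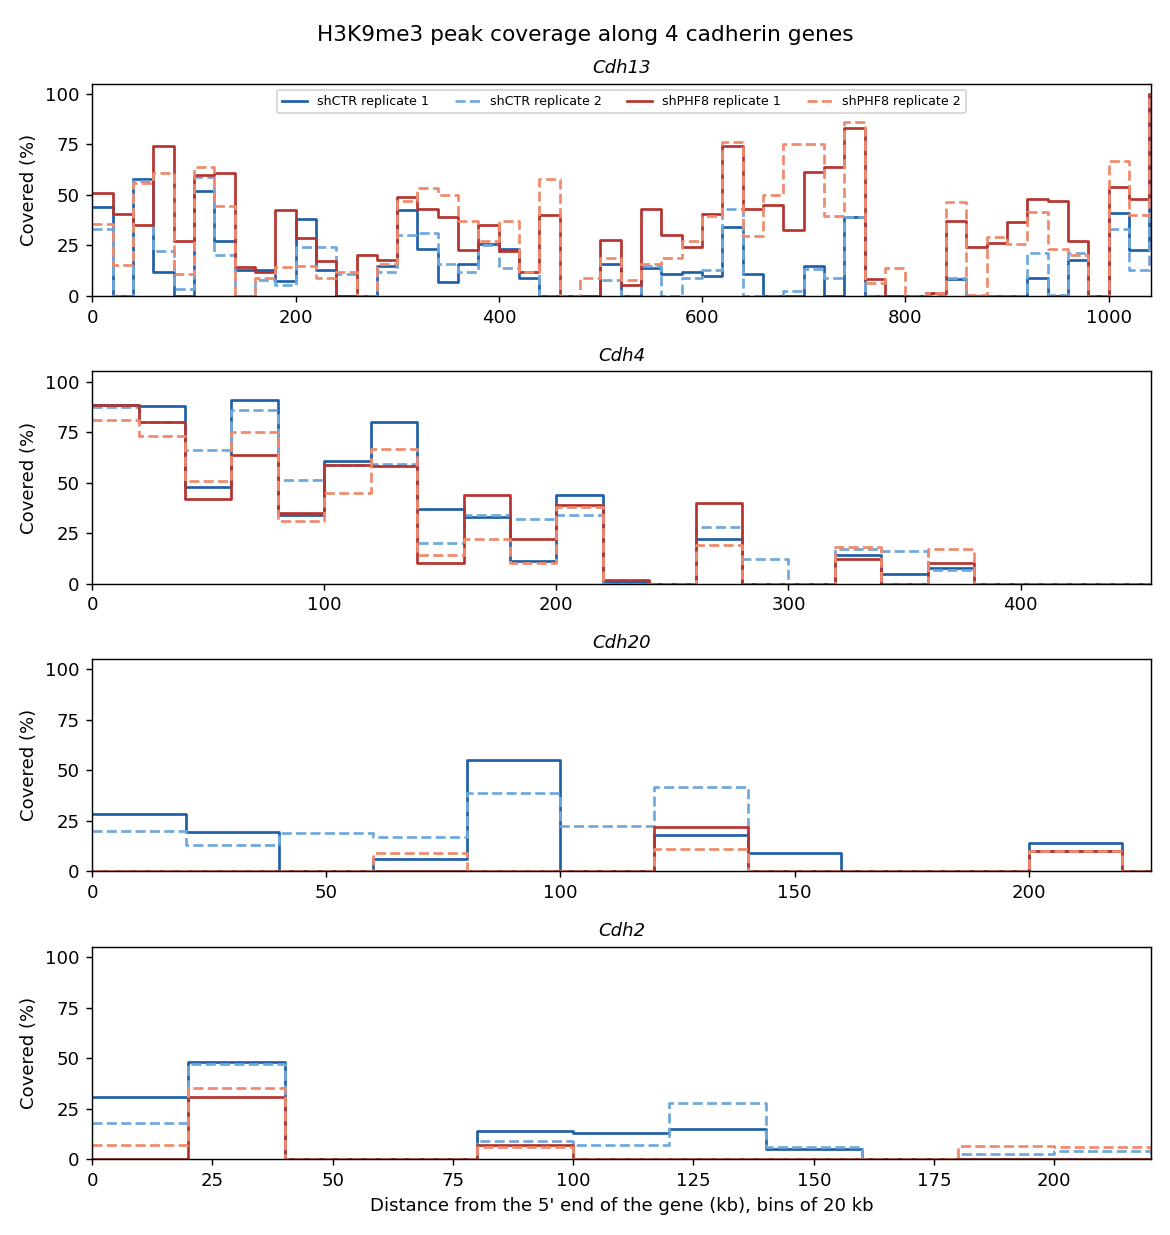
Share of each 20 kb bin covered by peaks (y axis, %) along Cdh13, Cdh4, Cdh20 and Cdh2 by distance from the 5′ end of the gene (x axis, kb, the last bin being shorter), with 1 line per library. Blue is shCTR and red shPHF8, solid lines are replicate 1 and dashed lines replicate 2. In Cdh13 both red lines lie above both blue lines in 35 of 53 bins, and in Cdh2 both lie below in 6 of 12.

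The other genes of this group were Cdh26, Cdh23, Cdh17 and Cdh16. Cdh26, a short cadherin known from epithelia, had 2966 and 3566 bp covered in the control pair, against 22366 and 15166 bp in the shPHF8 pair. Both shPHF8 libraries were well above both controls. Of its 6 regions 3 were gained, the widest being chr2:178459401-178468400 at 9000 bp, and 1 was lost. Cdh23, the upper part of the tip link, had 63400, 66000, 92400 and 73200 bp in the same order of libraries. Its conditions did not overlap, but shPHF8 replicate 2 was near the controls, and the direction turned when libraries were scaled to equal totals, to a difference of -2352.5 bp. Cdh17, a cadherin of intestine and liver, had 1600 bp in shPHF8 replicate 2 and none elsewhere, and Cdh16, the kidney cadherin, had no peak. As a group these 5 genes had a gene body ratio of 2.09, with 3 of the 4 covered genes covered more and none less, beside 27.8% of all covered genes with more. Without Cdh13 the other 4 had 66.4, 69.6, 115 and 90.0 kb, a ratio of 1.51, and Cdh23 overlapped after scaling.

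The type I classical cadherins Cdh1, Cdh2, Cdh3, Cdh4 and Cdh15 all held peaks in all 4 libraries, and they divided. Cdh2 (N-cadherin), the cadherin of neural stem cell junctions, had 25200 and 24400 bp covered in the control pair, against 7600 and 12200 bp in the shPHF8 pair. Both shPHF8 libraries had at most 12200 bp where both controls had at least 24400, and the difference of the means ranked 52 from the lowest of 20807 genes. The fewer bases lay in 6 of 12 bins of 20 kb with none in the other direction, 3 of its 9 regions were lost, and its promoter was free of peaks in every library. Cdh4 (R-cadherin), which acts in retinal axon growth, had 133000, 137600, 121000 and 112200 bp. It had the most covered bases of all classical cadherins in every library, and its difference of -18700 bp ranked 39 from the lowest of 20807, or 10 with -54071.2 bp after scaling. By covered percent, Cdh4 ranked 115 from the lowest of the 2372 genes of at least 100 kb with -4.1 points, and Cdh2 ranked 54 with -6.8 points. Near its start the libraries were alike: a region of 30000 bp (chr2:179444801-179474800), 2.37 kb from the start, had 30000 and 29600 bp covered in shCTR, and 30000 and 27800 bp in shPHF8.

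Cdh15 (M-cadherin), the cadherin of muscle precursors, had 2800 bp covered in both shCTR libraries, and 5435 and 7800 bp in the shPHF8 pair. Cdh1 (E-cadherin) had 2850, 6450, 7050 and 11800 bp in the same order, a separation of 600 bp between the nearest libraries of the conditions, and after scaling its conditions overlapped. Cdh3 (P-cadherin), its neighbour on chromosome 8, had 7807, 8607, 10807 and 8607 bp, with overlap. All 3 carried a promoter peak in every library. The promoter bases were 2435, 2435, 4235 and 2635 for Cdh15, which did not overlap between the conditions by 200 bp. They were 2800, 3000, 3951 and 2751 for Cdh1, and 3000, 2800, 4200 and 2400 for Cdh3, and for both the 2 shPHF8 libraries lay on either side of the controls. Cdh4 had 631, 431, 631 and 0 bp in its promoter window. Summed over the type I genes the gene body ratio was 0.866.

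Among the 13 type II cadherins 8 held a gene body peak in any library, beside 49.2% of all genes and 94.9% of those of at least 100 kb. In all 4 libraries 2 of them held one. These 2 were Cdh20 and Cdh22, and they went opposite ways. Cdh20 (ENSMUSG00000050840.8, chr1:104768529-104995481), a cadherin of the neural tube and forebrain compartments, had 30000 and 36400 bp covered in the control pair, against 6400 and 6000 bp in the shPHF8 pair. The shPHF8 libraries were close to each other and far below either control. The difference of the means, -27000 bp, ranked 12 from the lowest of 20807 genes, and between 7 and 37 after scaling or with any 1 library left out. By covered percent, a difference of -11.9 points, it ranked 12 from the lowest of the 2372 genes of at least 100 kb. Of its 14 regions 5 were lost and none gained, all in introns, and the widest, chr1:104773001-104779400, lay 4.47 kb from the start with 4600, 4000, 0 and 0 bp. The next widest lost regions were also in Cdh20, chr1:104850801-104856400 with 4600, 5600, 0 and 0 bp and chr1:104859001-104863000 with 4000, 1200, 0 and 0 bp. No library had a peak in the Cdh20 promoter, and only 3.80 kb of the gene was covered in all 4 libraries. Cdh22, a cadherin of the forebrain and pituitary, had 8000, 8294, 12800 and 11200 bp, more in both shPHF8 libraries. Its largest coding exon went the other way, with 82.6 and 100% covered in the control pair and none in either shPHF8 library.

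The remaining type II genes had few and scattered peaks. Cdh8, which marks early cortical areas, had 1671, 3271, 0 and 1871 bp of gene body and 3000, 4000, 0 and 4400 bp of promoter, so that only shPHF8 replicate 1 lacked it. Cdh6, another area marker, had 1600, 3800, 0 and 5800 bp with the same library at 0. Cdh11, a cadherin of mesenchyme and neurons, had 1200, 0, 2000 and 1800 bp in its promoter, nearly all upstream of the gene, since the gene body held 42 bp in shCTR replicate 1 and 0 elsewhere. Both shPHF8 libraries were above both controls there, with shCTR replicate 2 at 0. Cdh5 (VE-cadherin), the endothelial form, had 8600 bp in shPHF8 replicate 2 alone. Cdh10 and Cdh12 had at most 1800 bp, and Cdh7, Cdh9, Cdh18, Cdh19 and Cdh24 held no peak in any library. Cdh18 spans 925397 bp and the nearest peak lay 46.8 to 48.2 kb away. In Cdh5, Cdh6, Cdh8, Cdh10 and Cdh12 the presence of a gene body peak differed between the replicates of a condition, and the conditions overlapped.

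The delta-2 protocadherins gave the other pattern that both replicates shared. All 4 on chromosomes 1 to 19 had fewer covered promoter bases in both shPHF8 libraries. On the deposited lengths no other member did, against 14.6% of all promoters with a peak in any library. At Pcdh19, a delta-2 gene on the X chromosome and not a member, the promoter values overlapped between the conditions. Pcdh10 (OL-protocadherin), which acts in axon growth of the forebrain, had 3798 and 1998 bp in the control pair and 0 in both shPHF8 libraries. Pcdh18 had 1476 bp in both shCTR libraries and 0 in both shPHF8 libraries. Pcdh8 (Arcadlin), which acts in synapses and paraxial mesoderm, had 3889 and 4289 bp in shCTR, and 2489 and 1489 bp in shPHF8. Pcdh17, which acts in axon extension and corticobasal circuits, had 2763 and 2363 bp in shCTR, and 363 and 563 bp in shPHF8. Summed over the 4 promoters, shCTR replicates 1 and 2 had 11926 and 10126 bp, and shPHF8 replicates 1 and 2 had 2852 and 2052 bp. Scaling to equal totals raised both shCTR libraries and lowered both shPHF8 libraries, so it could not undo the 4 calls. On that scale Pcdh7 and Pcdh9 of the delta-1 group were fewer in both shPHF8 libraries too, which makes 6. Both of these calls came from the scaling alone. At Pcdh9 shCTR replicate 1 and both shPHF8 libraries each had 322 bp. At Pcdh7 shCTR replicate 2 and shPHF8 replicate 1 each had 1367 bp.

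With promoters taken as 1 kb on each side, 2 of the 4 calls remained. Pcdh8 then had 689, 801, 489 and 0 bp and Pcdh17 763, 363, 0 and 0 bp, Pcdh10 had 1001 bp in shCTR replicate 1 alone, and Pcdh18 had none in any library. The bases that differed at 3 kb lay in different places. At Pcdh10 and Pcdh18 they were mostly over the large coding exon. At Pcdh8 they included the lost region upstream of the start (chr14:79772201-79773800), with 1200, 1600, 0 and 0 bp.

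Beside these, 2 members had more promoter bases in both shPHF8 libraries, Cdh15 and Cdh11, against 14.5% of all promoters with a peak. A promoter peak in all 4 libraries was found for 8 members, against 11.7% of all genes. In at least 1 library 15 of the 33 members had one, beside 6100 of 20807 genes. The others were Pcdh7, with 1567, 1367, 1367 and 967 bp, Pcdh9, with 322, 1122, 322 and 322 bp, Pcdh15, with 3659, 6001, 2942 and 5942 bp, Pcdh20, with 2605 bp in shCTR replicate 2 alone, and Cdh17, with 1454 bp in shPHF8 replicate 2 alone. In none of these 5 did the conditions separate, except that Pcdh7 and Pcdh9 did so, with fewer bases in shPHF8, after scaling to equal totals.

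**Figure D3:**
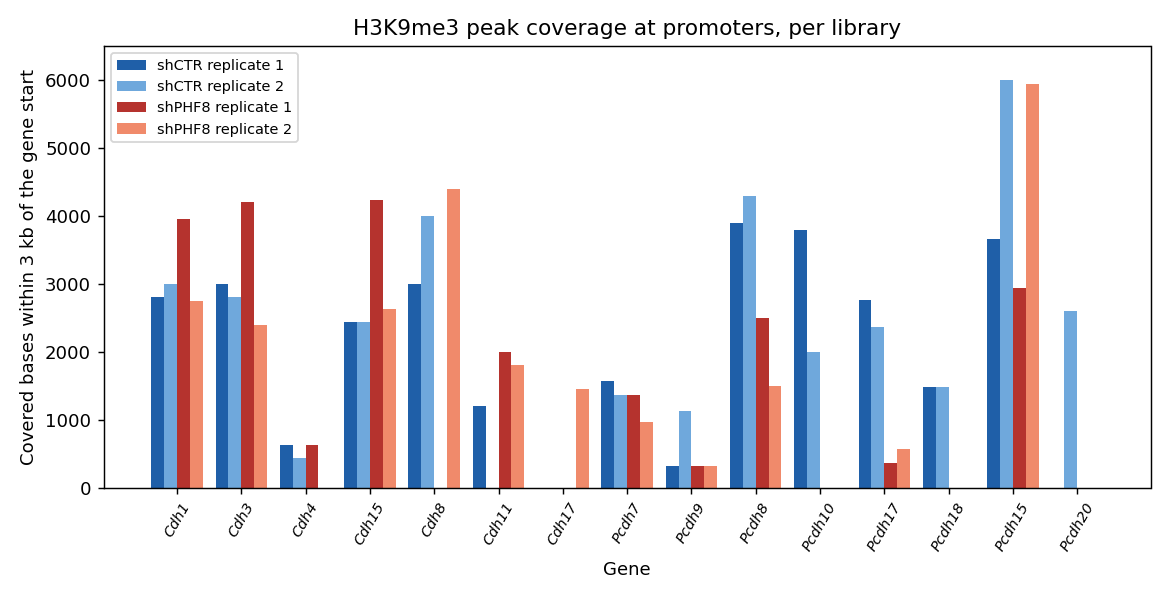
Bases covered by peaks within 3 kb of the gene start (y axis, bp) for the 15 members with a promoter peak in any library (x axis, grouped by type), with 1 bar per library. Blue bars are shCTR and red bars shPHF8. Both red bars are lower than both blue bars, or absent, for Pcdh8, Pcdh10, Pcdh17 and Pcdh18, and higher for Cdh11 and Cdh15.

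In the delta protocadherins the coding sequence was covered far more than the rest of the gene. Peaks covered 79.7 and 78.4% of the coding bases of the delta-2 genes in the control pair, against 44.8 and 38.1% in the shPHF8 pair, against 4.14, 5.95, 4.13 and 1.09% of the rest of those genes. In the delta-1 genes, the coding shares were 55.4, 67.2, 65.3 and 57.4%, beside 1.54 to 2.24% of the rest. In the other protocadherins, Pcdh12, Pcdh15 and Pcdh20, the coding shares were 0, 17.5, 0 and 0.777%. Since introns are long, coding bases made up between 19.9 and 29.4% of all covered gene body bases of the 10 protocadherins, by library, and 13 of the 14 regions of Pcdh9 and 10 of the 12 of Pcdh15 were intronic. The type II cadherins had at most 1.71% of coding bases covered in any library. Over all protein-coding genes, 9.31, 9.97, 11.5 and 10.9% of coding bases were covered in the same order of libraries. The coding bases of the delta-2 genes were thus marked several times more than average in control cells, and in shPHF8 cells the share was lower while that of all genes was higher.

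The unclustered protocadherins held 9 coding exons of at least 2000 bp, with 59.2 and 74.6% of their bases covered in the control pair, against 46.7 and 39.3% in the shPHF8 pair. All 704 such exons of protein-coding genes, these 9 among them, had 27.3, 28.6, 33.9 and 31.9%. In 6 and 8 of the 9 exons at least 50% of the bases were covered in the control pair, and in 5 and 4 in the shPHF8 pair. Of all 704 exons, 29.4, 32.1, 36.5 and 33.7% were covered to that extent in the same order of libraries. Of the 8 that held a peak in any library, 3 had fewer covered bases in both shPHF8 libraries and none had more, where over all 328 covered exons of this size 6.10% had fewer and 21.3% more. No cadherin of the Cdh group has a coding exon this large.

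The 3 exons with fewer bases belonged to delta-2 genes. The Pcdh10 exon (chr3:45379253-45381940, 2688 bp, 81.9% of the coding sequence) was covered over 100 and 94.5% in the control pair and not at all in shPHF8, so that no peak of either shPHF8 library lay within 158 kb of the gene. The Pcdh18 exon (chr3:49754378-49756864) was covered over 57.2% in both shCTR libraries and not at all in shPHF8. The Pcdh8 exon (chr14:79768497-79771121) was covered over 95.4% in both shCTR libraries, and over 87.8 and 49.7% in the shPHF8 pair. The fourth, that of Pcdh17 (chr14:84446095-84448653), stayed covered over 95.9 to 100% in every library, and the bases it had fewer lay around the exon.

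**Figure D4:**
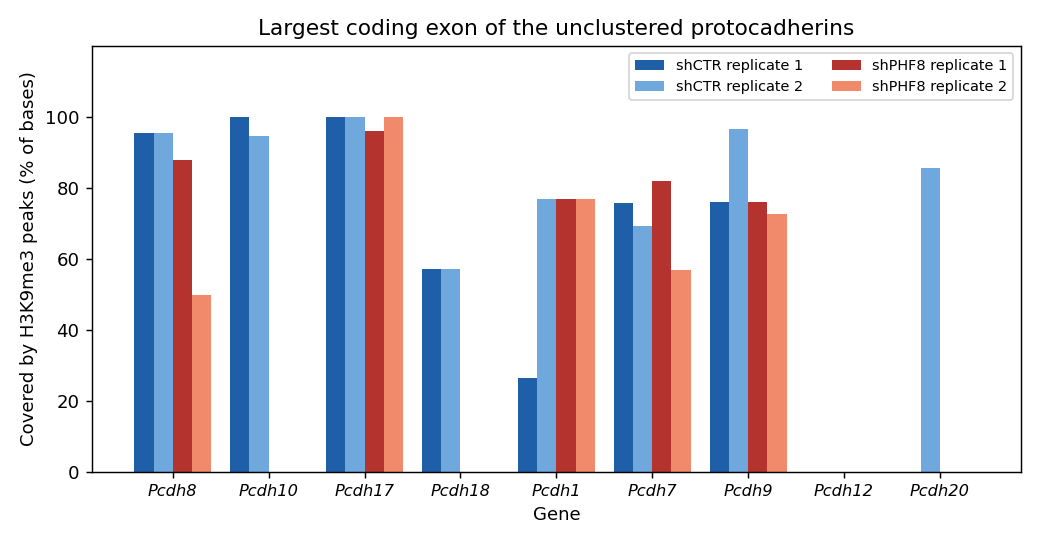
Share of the largest coding exon covered by peaks (y axis, %) in the 9 unclustered protocadherins with a coding exon of at least 2000 bp (x axis), with 1 bar per library, blue for shCTR and red for shPHF8. The exons of Pcdh10 and Pcdh18 have blue bars only, that of Pcdh17 is at or above 95.9% in all 4 libraries, and Pcdh12 has none.

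Gene bodies of the protocadherins differed less than their promoters. Pcdh10 had 3400, 2600, 0 and 0 bp, and Pcdh17 had 5000, 4600, 3400 and 2800 bp, both fewer in shPHF8. Pcdh8, a gene of 4538 bp, was the most covered member by share, with 4226, 3600, 4026 and 3026 bp and overlapping conditions, and Pcdh18 had 4600, 9105, 5105 and 1000 bp, also overlapping. Of the delta-1 genes, Pcdh1 had 5487, 6887, 5200 and 3800 bp, fewer in shPHF8, and Pcdh7 had 2400, 2200, 2600 and 3800 bp, more in shPHF8 by 200 bp between the nearest libraries. Pcdh9 had 18600, 21200, 29000 and 21000 bp with overlap. Pcdh15, the lower part of the tip link and the longest member at 1550396 bp, had 14259, 18859, 12259 and 24059 bp, 1.12% of the gene on average, with overlap. Pcdh20 had 3600 bp in shCTR replicate 2 alone, 85.5% of its large exon, and Pcdh12, the endothelial protocadherin, had no peak though one lay 5.40 to 6.49 kb away in every library.

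Merged regions showed the same division by gene. Of 229 regions at the members, 19 were gained and 20 lost, 90 were present in all 4 libraries, and 169 lay in introns. These are 8.30 and 8.73% of the regions, against 4.29% gained and 5.00% lost of all 70705. Of the gained regions 14 were in Cdh13 and 3 in Cdh26. Without Cdh13, 5 of 152 regions were gained (3.29%) and 19 lost (12.5%), of which 5 were in Cdh20 and 3 each in Cdh2 and Pcdh15. Gained regions had a median width of 6000 bp, beside 4200 bp for all gained regions, and lost regions 2700 bp, beside 2600 bp.

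Pooled over the members, the covered and uncovered parts differed in base composition, while the gained and lost parts were close. Bases covered in all 4 libraries (250 kb) were 48.0% GC, those in both shPHF8 libraries only (130 kb) 47.6%, and those in both shCTR libraries only (47.3 kb) 46.1%, where the bases covered in no library were 39.1% GC. The repeat-masked share was 20.1, 19.3 and 20.3% in the 3 covered classes and 30.4% in the uncovered bases. Pooling mixes genes with and without peaks. In Cdh4, Cdh13 and Cdh23, which held the most bases covered in all 4 libraries, those bases were 48.6, 46.3 and 49.8% GC. Their uncovered bases were 49.9, 45.4 and 50.9% GC. The repeat-masked shares there were 17.1, 19.4 and 26.5%, against 18.1, 24.0 and 20.7%. Among the protocadherins the GC contrast varied. In Pcdh15, Pcdh17 and Pcdh7 GC was 50.7, 57.4 and 50.9%, against 38.4, 34.3 and 36.5%. In Pcdh9 and Pcdh18 it was 41.3 and 48.3%, against 35.5 and 42.4%. In Pcdh1 and Pcdh8 it was 55.9 and 61.9%, against 54.1 and 62.2%. The covered part was small, 4.06 kb in Pcdh15 and 2.60 kb in Pcdh17. These are shares of bases in a few genes, 97.0 kb of the 130 kb being in Cdh13, and no test was made of them.

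Among 33 genes that work with cadherins or share their repeats, peaks lay in 28 gene bodies, with 10 covered more and 4 less in both shPHF8 libraries, where 27.8 and 12.8% of all covered genes were. Of 12 catenins and junction partners, 3 were covered more (Ctnna3, Afdn and Plekha7) and 3 less (Jup, Ctnnd1 and Vcl). Jup (plakoglobin) had 2400 and 4600 bp in shCTR and 0 in both shPHF8 libraries, and Ctnnd1 (p120 catenin), which stabilizes cadherins at the membrane, had 1800 and 3400 bp in shCTR and 0 in both shPHF8 libraries. Ctnnb1 (beta-catenin) held no peak. Of the 21 other genes of the superfamily, 7 were covered more and 1, Fat3, less, with 21000, 22000, 18800 and 8200 bp. Clstn2 (calsyntenin), with 7200, 16600, 39000 and 19200 bp, and Fat2, with 6392, 5200, 30792 and 13000 bp, had the largest differences towards more, followed by Cdhr3 with 30600, 28205, 40080 and 34075 bp. Vcl (vinculin), which couples junctions to actin, had 11800, 7800, 5800 and 2600 bp. At promoters, 1 gene (Cdhr3) had more and 4 (Ctnnd1, Fat4, Dchs2 and Celsr3) had fewer covered bases of the 16 with a promoter peak, where 14.5 and 14.6% of all promoters with a peak did. Fat4, Dchs2, Celsr1, Celsr2 and Dsc2 had a promoter peak in all 4 libraries, and Dchs2 had 3401, 3653, 2548 and 1948 bp. The 57 clustered protocadherins, the closest relatives of the delta genes, all held a gene body peak in at least 1 library, against 49.2% of all genes. A promoter peak in all 4 libraries was held by 44, against 11.7%. Of their 57 gene bodies 14 were covered more and 3 less in the shPHF8 pair, where 27.8 and 12.8% of all covered genes were. Of their promoters 12 were covered more and 2 less, where 14.5 and 14.6% of all promoters with a peak were. No test was made, since clustered exons lie close together and share peaks.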

How the data were processed

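H3K9me3 ChIP-seq peak lists of 4 libraries, 2 shCTR and 2 shPHF8, were used. The 2 inputs were not used here. Per the study's methods, the authors aligned the reads to mm10 with SOAP2 and called broad peaks with SICER2, while the submitters' processing notes name Bowtie2 2.3.5.1, SAMtools 1.9 and deepTools with no role. The window, gap and threshold of the calls, and the treatment of reads that map to several places, are not given in the sources used here. The deposited lists hold chromosome, start and end with no score, and each start was read as 0-based and each end as inclusive, so that all widths are multiples of 200 bp. How firmly a peak was called depends on each library's read depth, which the study gives in a supplement but the lists do not hold, so a missing peak is not evidence of no mark. By that supplement shPHF8 replicate 2 had the fewest uniquely mapped reads, and shPHF8 replicate 1 had nearly as many as the controls.

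Covered bases per gene were computed with Python 3.11.15, numpy 2.4.6 and scipy 1.17.1 on GENCODE M21, and the code was tested on simulated peaks against bedtools 2.31.1. "More" or "fewer" means that both shPHF8 libraries lay above or below both shCTR libraries, set beside the same share over all genes on chromosomes 1 to 19. Sums were compared by exact two-sided permutation tests over libraries. Members, roles and lists (related genes and neural stem cell markers) were chosen with earlier results of these data known. Values per library are given for members with a promoter peak, the 5 largest rises and falls among separated genes, the 5 highest covered shares, 10 genes known in cortex, Cdh23 and Pcdh15, and for the related genes the largest differences. Other members named, and the comparison of coding exons of at least 2000 bp, were added after their values were seen. RefSeq upstream sequences matched 21 of 33 members by symbol. Over 10247 genes the deviations of same-numbered libraries from their condition means correlated at r = -0.11. With 2 libraries per condition this cannot settle whether replicate numbers pair the libraries. Alternatives were wide peaks, scaling to equal covered length, other promoters, gene bodies, merging and overlaps, a gap between conditions, each library left out and the replicate number as a block. Added after seeing the data were the crossed block and the members without Cdh13 or without the delta-2 genes.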

Additional observations from a re-analysis of the deposited data

How the results depend on the processing

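The ratio of gene body bases, 1.36, ranged from 1.32 to 1.40 with each library left out, and was 0.961 without Cdh13, which turns its direction. Scaling libraries to equal totals moved the counts of gene bodies from 7 with more and 6 with fewer to 4 and 10, left 1 promoter with more, and turned Cdh23 (-2352.5 bp). Peaks of at least 2000 bp left 1 promoter with more and 9 lost regions. A gap of 1000 bases left 0 promoters with more. Promoters of 1 kb left 1 with more, 2 with fewer and 4 with a peak in all 4 libraries, and put Pcdh18 at 0. Merging peaks within 5 kb gave 8 gained and 11 lost regions. The causes were not tested. With each library left out, which makes separation easier, gene bodies with more ranged from 7 to 12 and with fewer from 8 to 10, promoters with more from 2 to 4 and with fewer from 5 to 8, promoters with a peak in all libraries from 8 to 9, gained regions from 25 to 47 and lost regions from 20 to 42. The highest counts of gained regions and of gene bodies with more came without shPHF8 replicate 1, and the highest of lost regions without shCTR replicate 1. With the replicate block, gene bodies with more were 7 and with fewer 8, promoters 2 and 6, and the ratio was 1.36. With the crossed pairing the counts were 9 and 7 gene bodies and 2 and 4 promoters. Of 76 alternatives to these summary results 54 stayed on the same side or within 1.5 times. For 19 single-gene differences 130 of 133 alternatives kept their direction, but many of these outcomes were fixed in advance. The conditions were separated in each of these genes, so leaving out 1 library could not turn the direction. Scaling raised both shCTR libraries and lowered both shPHF8 libraries, so it could not turn a gene with fewer. With 2 libraries per condition and no peak heights, the spread of a single gene rests on 1 difference per condition.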

Other observations

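The X chromosome holds 2 genes of the same naming, which the peak counts above leave out. Pcdh19, a delta-2 protocadherin known from an epilepsy of girls, had 1014 and 2014 promoter bases covered in the control pair, against 0 and 1214 in the shPHF8 pair, with overlap. Its gene body had 1800 and 2400 bp in shCTR, and 0 and 1400 bp in shPHF8. Both shPHF8 libraries were below both controls there. Pcdh11x, which spans 620361 bp, had no covered base in any library.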
